A study of Mus musculus with 9 samples.

Results

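Crude lysates of single mouse oocytes were compared with RNA purified from single oocytes on RNeasy Mini columns, using 3 arrays of each kind out of the 9 arrays of the series. Each array held the RNA of 1 metaphase II oocyte. The groups were chosen by the sample titles, and 19938 genes with a row of their own on the array were tested. Every oocyte came from an unmated ICR female aged 2 months primed with PMSG (10 IU) and given hCG (10 IU) after 46 hours. The RNeasy group was lysed and cleaned on a Qiagen column, and the direct lysis group was lysed in a NuGEN buffer and used without purification. Both groups, and the remaining 3 oocytes, which were purified with the PicoPure kit, were amplified with the NuGEN One-Direct reagents and biotinylated. Each condition used 3 mice, with 1 to 3 cells from a mouse, and nothing in the labels ties an oocyte to its mouse. The p-values therefore reflect how these oocytes vary, and oocytes of 1 group may have come from the same mouse. ICR is an outbred strain, so oocytes of different females can also differ genetically. Lysis buffer, column and mice cannot be told apart in this comparison.

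A fully grown oocyte makes and stores a large pool of mRNA and then stops transcription. At metaphase II it is arrested before fertilization and lives on stored messages, which are kept silent, translated or degraded through control of their poly(A) tails. A single oocyte therefore holds a limited RNA pool that is not renewed, and any step that loses or fails to copy a message is read as a lower level. Ribo-SPIA amplification copies RNA with primers that carry RNA and DNA parts, and makes cDNA that is hybridized to probes along each transcript. The values used here are the authors' normalized log2 expression values, so a difference of 1 is a 2-fold difference. They compare a gene with itself between arrays and not with other genes. In a single-cell array, less RNA in the cell and less RNA recovered or copied cannot be told apart.

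All 6 arrays carried a mature oocyte's transcripts. Bmp15, an oocyte growth factor gene, read 12.83, 12.84 and 12.84 with RNeasy and 12.86, 12.94 and 12.89 with direct lysis. Its partner Gdf9 read 12.66 to 12.70 and 12.63 to 12.69. Of 65 genes listed for oocyte-specific or maternal effect roles, 59 were above background in every one of the 6 libraries. Background was set on each array at the 95th percentile of 1233 olfactory, vomeronasal and taste receptor genes, which an oocyte is not known to use as a class, and its level ranged from 7.26 to 7.47 over the RNeasy arrays and from 7.23 to 7.29 over the lysates. Pearson's r over genes, which are not independent replicates, was 0.969 to 0.978 among RNeasy arrays, 0.968 to 0.973 among lysates and 0.958 to 0.970 between the groups.

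The third RNeasy oocyte read above the other arrays in some markers of the cells that surround an oocyte. Of 32 cumulus and granulosa cell markers, 5 lay more than 0.5 above all 8 other arrays of the series in that library. None did so in the other RNeasy oocytes, and 1 did in the second lysate. All genes were counted only at more than 1 unit above the other arrays, so the 5 markers have no share of all genes at 0.5 beside them. That gave 56 genes in the third RNeasy library, 53 in the second and 58 in the second lysate. Inhba, an inhibin and activin subunit gene of granulosa cells, read 8.48 there and at most 7.21 elsewhere. Tnfaip6, a matrix gene of the expanding cumulus, read 8.39 against at most 7.03. The prostaglandin synthase gene Ptgs2 read 7.56 against at most 6.94, and the gap junction gene Gja1 7.40 against at most 6.83. Background on that array was 7.47, so Ptgs2 lay just above it and Gja1 below it. Akr1c18, a progesterone-metabolizing enzyme gene of the ovary that was picked after its values were seen, read 10.29 there and between 4.86 and 5.30 on the other arrays. The mean level of the 32 markers was 6.83 to 7.06 over the RNeasy arrays and 6.87 to 6.95 over the lysates. Of the 32 markers, 23 were above background on none of the 6 arrays and 3 on all. The mean of 16 blood and immune cell markers was 6.72 to 6.85 over the RNeasy arrays and 6.68 to 6.76 over the lysates, and that of 20 oviduct epithelium markers was 7.29 to 7.40 and 7.24 to 7.31. Cd24a, a surface marker in the oviduct list, read 5.88, 8.82 and 7.83 with RNeasy and no more than 4.97 in any lysate, and did not pass the test (adjusted p = 0.173). No member of these 3 lists was called between the groups, where 0.436% of all genes were called. The test below was also run without the third RNeasy library, and those counts are given with the result. Leaving out any array also costs precision, so the counts do not isolate the part of that library.

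With direct lysis 54 genes were lower and 33 were higher than with RNeasy (limma's moderated test, Benjamini-Hochberg adjusted p under 0.05). The 87 genes were 0.436% of those tested, 0.271% lower and 0.166% higher. After a further quantile normalization 44 were lower and 43 higher. The rows of the lower genes mostly gave a strong array signal and those of the higher genes a weak one. A row's signal depends on its probes and does not rank messages by amount. Median RNeasy signals were 11.02 for the lower genes and 8.09 for the higher ones, against 7.42 for all genes. Median direct lysis signals were 9.45 and 9.01, against 7.44. Selection by the difference itself favours high RNeasy signals among lower genes and low ones among higher genes. The median difference was -1.21 for the lower genes and 0.78 for the higher ones, and 33 lower genes but 6 higher ones differed by at least 2-fold. Among the 1616 genes with a series mean of 11 or more, 20 were lower and 2 higher. Among the 2933 from 9 to 11, 22 were lower and 8 higher. From background to 9 there were 10 lower and 15 higher of 6359, and below background 2 and 8 of 9030. All 87 had arrays that did not overlap between the groups, as did 16.9% of all genes.

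These calls rest on a spread estimated from all 9 arrays, and many were lost with fewer arrays. With the 6 arrays alone 3 genes were called, all lower, namely Il7, Ssr3 and Cetn4. Without RNeasy oocyte 1, 2 or 3 the counts were 3, 16 and 17, of which 3, 10 and 12 were among the 87. Without PicoPure oocyte 1, 2 or 3, which enter only the spread, they were 25, 16 and 39, with 24, 15 and 30 among the 87. Without direct lysis oocyte 1, 2 or 3 they were 95, 89 and 54, with 42, 47 and 36 among the 87. The direction of the 87 genes was the same in each of these fits. With arrays that did not overlap it could not turn, so this says nothing about their stability. A 2-fold difference was much more common than a call: 400 genes differed by at least 2-fold, of which 39 were called.

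**Figure D1:**
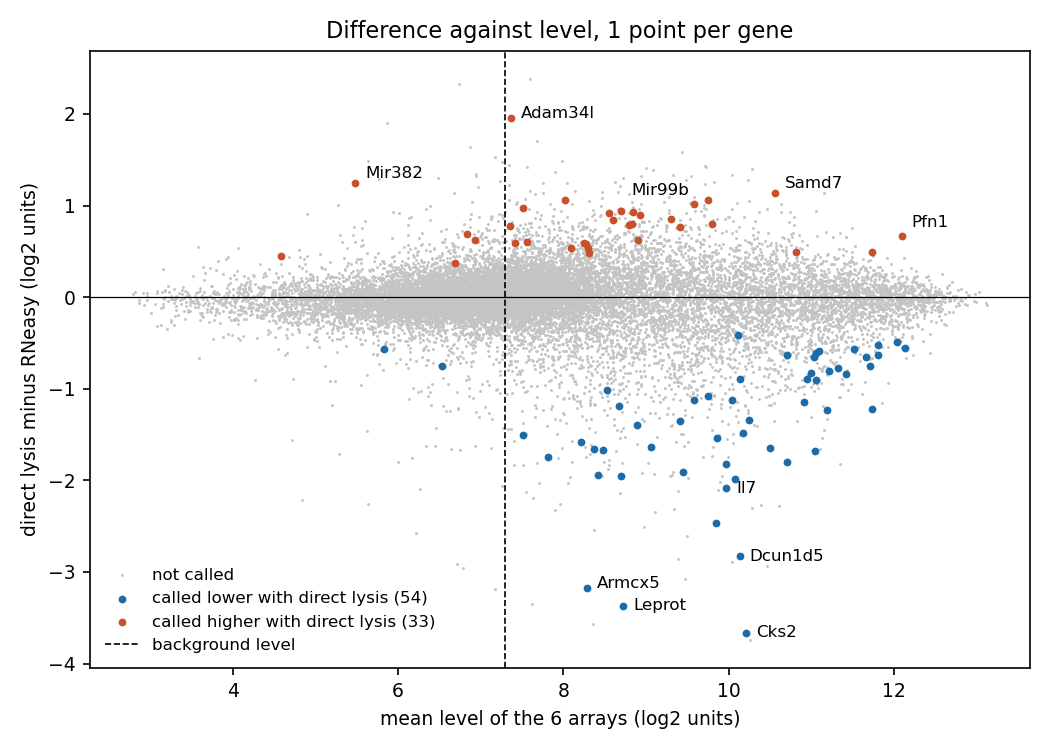
Difference between direct lysis and RNeasy (vertical axis, log2 units, mean of 3 arrays minus mean of 3) against the mean level of the 6 arrays (horizontal axis, log2 units), with 1 point per gene and the mean background level of 7.29 as a dashed line. The 54 genes called lower reach down to -3.66 and lie mostly at strong signals, and the 33 called higher reach up to 1.95 and lie mostly at weaker ones.

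The largest decrease among called genes was in Cks2, the small subunit of the cyclin-dependent kinase that oocytes need to leave meiosis I. It read 12.05, 12.08 and 11.98 with RNeasy and 9.29, 7.61 and 8.23 in the lysates. All lysates were far below all columns, and they differed among themselves by more than 1 unit. The difference was -3.66 ± 0.35 (SE), or 12.7-fold (limma, adjusted p = 0.0129), and its other rows on the array gave -3.81 and -3.48. Leprot, an endosomal membrane protein gene, read 10.58, 9.81 and 10.82 with RNeasy and 6.97, 6.96 and 7.19 in the lysates. None of the lysates was above background, so the gene was at least 8.86-fold lower (limma, adjusted p = 0.0265). Armcx5, an armadillo repeat gene, read 9.44, 10.29 and 9.90 against 7.32, 7.04 and 5.73, and only the first lysate was above background.

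Several genes of the ubiquitin system were lower, while the RING finger ubiquitin ligase gene Rnf220 was higher. Rnf220 went from 11.48 ± 0.07 with RNeasy to 11.98 ± 0.04 with direct lysis (SD, n = 3 each; limma, adjusted p = 0.0356). Dcun1d5, which promotes neddylation of cullins, read 11.45, 11.66 and 11.52 with RNeasy and 8.69, 8.27 and 9.19 with direct lysis. The difference was -2.83 ± 0.20 (SE; limma, adjusted p = 0.00575), and its call was lost in 1 of 18 alternatives. Gmcl1, the germ cell-less gene, whose product is a BTB adaptor, read 11.25, 11.06 and 10.92 against 7.96, 8.67 and 9.20. Kbtbd8, another BTB and kelch adaptor gene, was lower by a smaller step, from 12.41 ± 0.09 to 11.86 ± 0.07 (SD, n = 3 each). The ubiquitin-conjugating enzyme gene Ube2b went from 11.38 ± 0.05 to 10.79 ± 0.13. This grouping and those that follow were made after the calls were known, so they describe the genes and test nothing.

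Il7, a lymphocyte cytokine gene with a clear signal in these oocytes, was the steadiest difference. It read 10.90, 11.01 and 11.13 with RNeasy, and the lysates ranged from 8.71 to 9.07. The difference was -2.08 ± 0.14 (SE; limma, adjusted p = 0.00575), and it was the 1 gene called in all 18 alternatives. Ssr3, a subunit of the translocon-associated complex of the endoplasmic reticulum, read 10.34, 10.29 and 10.58 against 8.51, 8.37 and 8.59. Its difference was -1.91 ± 0.14 (SE; limma, adjusted p = 0.00575), with little spread on either side. B3gnt2, a glycosyltransferase gene, read 10.76, 11.20 and 10.64 against 8.93, 9.58 and 8.66.

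Several decreases fell in genes of chromosomes, centrioles and DNA synthesis. Cetn4, a centrin gene, read 11.06, 11.03 and 11.10 with RNeasy and 8.91, 9.34 and 8.99 with direct lysis. Ccp110, whose product caps centrioles, went from 10.29 ± 0.16 to 9.21 ± 0.12 (SD, n = 3 each). Tfdp1, the dimer partner of E2F factors, went from 10.92 ± 0.09 to 9.57 ± 0.24. Wapl, which releases cohesin from chromosomes, went from 11.83 ± 0.05 to 10.99 ± 0.21, and the dUTPase gene Dut differed by -1.58 ± 0.21 (SE), with 1 lysate above background. Birc5, the survivin gene of the chromosomal passenger complex, showed a small and tight decrease from 12.27 ± 0.05 to 11.78 ± 0.05. Casp8ap2, needed for histone mRNA processing, read 11.66, 11.75 and 11.37 against 10.24, 9.67 and 9.49. The histone gene H2bc18 read 9.24, 9.01 and 9.69 against 7.32, 7.51 and 8.11. Histone genes have close copies, so that row may take signal from more than 1 of them.

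A few genes for transcription and RNA handling were lower, while Ddx39a and Cherp, also of this kind, were higher. Tent2, a cytoplasmic poly(A) polymerase gene, read 10.56, 10.61 and 10.70 with RNeasy and 9.50, 8.47 and 9.29 with direct lysis. It was called (limma, adjusted p = 0.0495), and a second Tent2 row differed by -1.02 (adjusted p = 0.0799 when all rows were tested). Eif4g2, a translation initiation factor gene, went from 11.61 ± 0.04 to 10.81 ± 0.07 (SD, n = 3 each; adjusted p = 0.00693). The spliceosome gene Bcas2 read 8.58, 8.86 and 8.62 against 7.10, 7.42 and 6.29, and Taf13, a subunit of the general factor TFIID, 11.91, 12.03 and 11.70 against 9.99, 9.91 and 10.70. A second Taf13 row differed by -0.80 (adjusted p = 0.140). Zc3h6, a zinc finger gene, had 9.39 ± 0.19 and 7.45 ± 0.28, and a second row differed by -0.55 (adjusted p = 0.189 when all rows were tested). The lysates thus lay below every RNeasy array in the rows used, while the second rows of Tent2, Taf13 and Zc3h6 were not called.

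Some genes of metabolism and transport were lower. Vdac2, a channel gene of the outer mitochondrial membrane, read 11.30, 11.04 and 11.62 with RNeasy and 9.77, 9.78 and 9.47 with direct lysis (-1.65 ± 0.15 SE; limma, adjusted p = 0.0116). The hexokinase gene Hk1 went from 12.12 ± 0.04 to 11.49 ± 0.05 (SD, n = 3 each). Mmadhc, a cobalamin trafficking gene, went from 11.71 ± 0.08 to 10.93 ± 0.06, and the peroxisome import gene Pex13 from 10.32 ± 0.02 to 9.90 ± 0.07. The ferritin heavy chain gene Fth1 went from 11.99 ± 0.16 to 11.33 ± 0.07, and Ireb2, which controls iron genes after transcription, from 11.79 ± 0.05 to 11.23 ± 0.02. Atp13a3, a transport ATPase gene, differed by -0.75 in the row used, and its other row averaged 10.56 with RNeasy and was above background in no lysate, at least 9.88-fold lower (limma, adjusted p = 0.000970 when all rows were tested). Cib1, a calcium-binding protein gene, read 9.90, 9.61 and 9.50 against 7.72, 8.28 and 7.17.

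**Figure D2:**
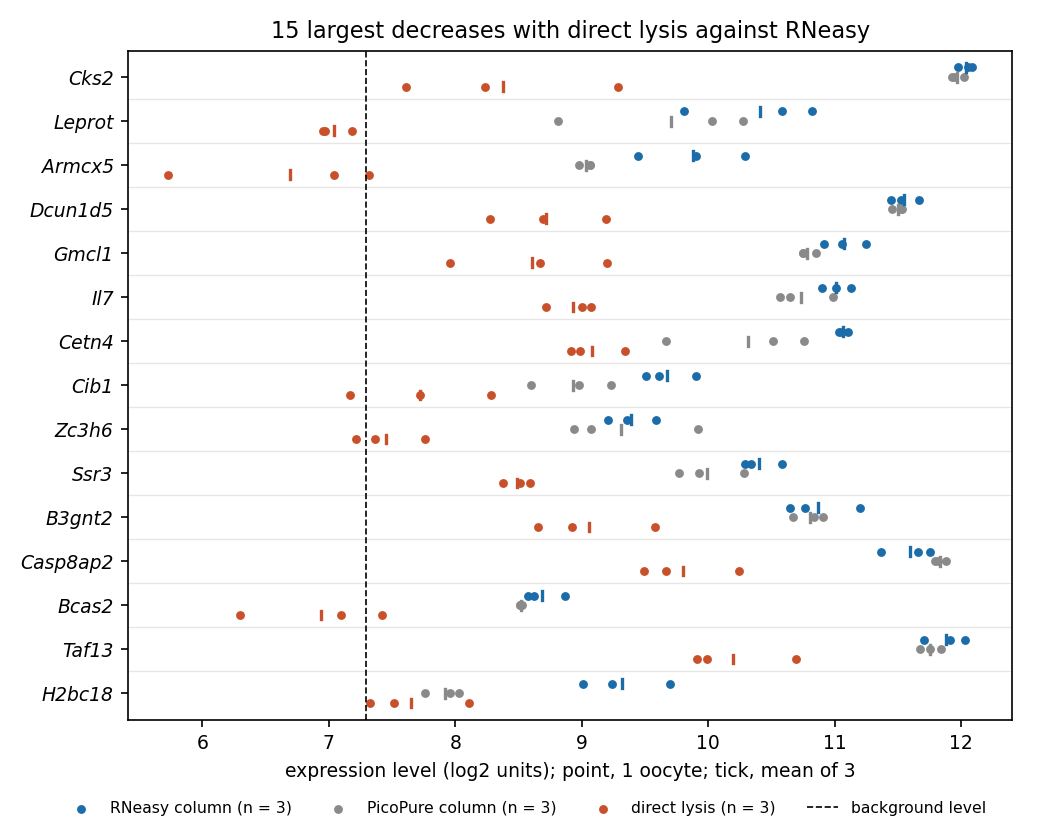
Levels (log2 units) of the 15 largest decreases among called genes measured above background, on every array, with 1 point per oocyte, a tick at each mean of 3, and the background level as a dashed line. The direct lysis points lie left of the RNeasy points for each gene, as with Cks2 at 7.61 to 9.29 against 11.98 to 12.08, and the PicoPure points of H2bc18, at a mean of 7.92, lie nearer the lysates.

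The lysates varied more than the columns in the genes that were lower. In 41 of the 54 lower genes the SD over 3 oocytes was larger with direct lysis, and the median SD was 0.230 against 0.107 with RNeasy. Over all genes it was larger in 11094 of 19938, with medians of 0.146 and 0.126. The lowest of the 3 lysates was the first in 16 genes, the second in 18 and the third in 20. These ranks do not show which lysate lay farthest from the others. Calling a gene requires a difference that is large for the spread, so the genes were not chosen independently of these SDs.

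The increases were smaller. Adam34l, a gene of the ADAM protease family, read 6.18, 6.20 and 6.78 with RNeasy and 8.69, 8.08 and 8.25 with direct lysis. No RNeasy array was above background, so it was at least 1.94-fold higher (limma, adjusted p = 0.0493). Samd7, a SAM domain gene known from photoreceptors, read 10.30, 9.97 and 9.71 against 11.25, 11.23 and 10.91. The trypsin gene Try5 went from 7.49 ± 0.14 to 8.55 ± 0.29 (SD, n = 3 each). Cby3, a chibby family gene, gave the clearest increase, from 8.43, 8.38 and 8.32 to 9.31, 9.22 and 9.37 (0.93 ± 0.07 SE; limma, adjusted p = 0.00575).

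Membrane and cytoskeleton genes were among the increases with stronger signals. Cd151, a tetraspanin gene, read 8.92, 9.08 and 9.21 with RNeasy and 10.28, 10.14 and 9.85 with direct lysis. Spint1, a serine protease inhibitor gene, read 9.03, 9.40 and 9.25 against 9.93, 10.43 and 10.48. The profilin gene Pfn1, whose product supplies actin monomers, went from 11.76 ± 0.14 to 12.43 ± 0.07 (SD, n = 3 each), and the spectrin gene Sptan1 from 10.56 ± 0.11 to 11.06 ± 0.05. Exoc1, an exocyst subunit gene, went from 9.40 ± 0.19 to 10.20 ± 0.01. Actb, also of the cytoskeleton, averaged 11.02 ± 0.10 with RNeasy and 11.01 ± 0.27 in the lysates and did not pass.

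Other increases were in nuclear and enzyme genes. Mta1, a subunit of a chromatin remodelling and deacetylase complex, read 8.83, 8.84 and 8.93 with RNeasy and 9.64, 9.71 and 9.83 with direct lysis (0.86 ± 0.07 SE; limma, adjusted p = 0.00772). The RNA helicase gene Ddx39a went from 8.43 ± 0.09 to 9.23 ± 0.13 (SD, n = 3 each), the adenosine deaminase gene Ada from 8.48 ± 0.10 to 9.37 ± 0.06, and the mitochondrial nucleotidase gene Nt5m from 8.17 ± 0.16 to 9.02 ± 0.11. Genes of neural transcription factors gave weak signals that were higher with direct lysis. Sox1 went from 8.09 ± 0.07 to 9.01 ± 0.19, Lhx2 from 7.95 ± 0.06 to 8.54 ± 0.04 and Nkx2-4 from 8.03 ± 0.05 to 8.57 ± 0.02. Pou3f2 was above background on no RNeasy array and was at least 1.28-fold higher in the row used. Its second row averaged 3.46 with RNeasy and 3.41 with direct lysis, below background on both sides. The olfactory receptor gene Olfr1029 read 6.89, 7.02 and 7.15 with RNeasy and 7.94, 8.25 and 7.79 with direct lysis, and was at least 1.53-fold higher. Receptor genes of this kind set the background level.

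**Figure D3:**
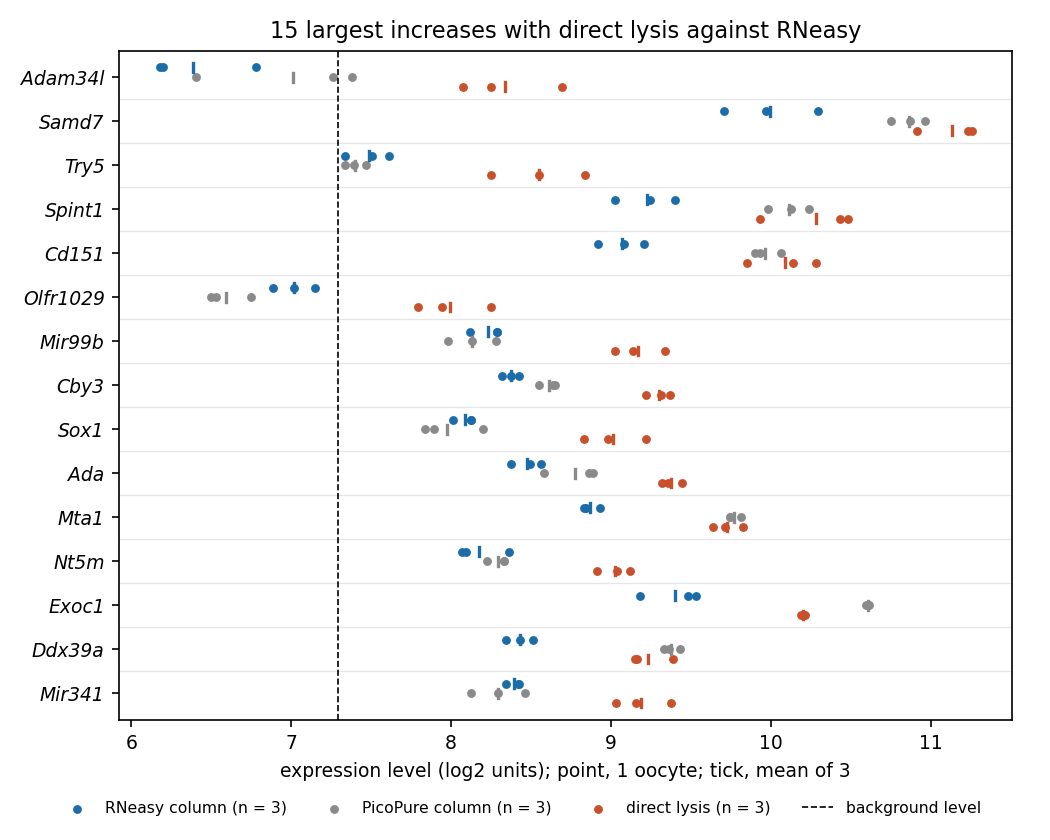
Levels (log2 units) of the 15 largest increases among called genes measured above background, on every array, with 1 point per oocyte, a tick at each mean of 3, and the background level as a dashed line. The direct lysis points lie right of the RNeasy points for each gene, and the PicoPure points lie near the lysates for Mta1, at a mean of 9.77, and near RNeasy for Mir99b, at 8.13.

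The PicoPure oocytes, read in the same fit, show which of these differences were also seen between the column kits. Comparisons of the 3 preparations share arrays, so their values are set side by side and no overlap is counted. In each pair of comparisons that follows, 0.597% of all genes were called between direct lysis and PicoPure and 0.0602% between PicoPure and RNeasy. Cks2 averaged 11.96 with PicoPure, against 12.04 with RNeasy and 8.37 in the lysates, and direct lysis differed from PicoPure by -3.59 (limma, adjusted p = 0.0104). Dcun1d5 averaged 11.50 with PicoPure and Il7 10.73, and direct lysis differed by -2.78 and -1.80 (adjusted p = 0.00497 and 0.00552). For these genes both kits gave the higher reading. H2bc18 averaged 7.92 with PicoPure, and its difference between direct lysis and PicoPure was -0.27 (adjusted p = 0.678). Mmadhc, Fth1 and Ube2b were lower with PicoPure than with RNeasy, by differences of -0.72, -0.99 and -0.76 (adjusted p = 0.0207 for each). Zfc3h1, a nuclear RNA decay gene, averaged 9.26 with RNeasy, 8.07 in the lysates and 10.40 with PicoPure.

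The increases divided in the same way. Mir99b, Sox1, Try5 and Cby3 averaged 8.13, 7.98, 7.40 and 8.61 with PicoPure, and each was higher in the lysates than with PicoPure (limma, adjusted p = 0.0124, 0.0234, 0.0254 and 0.0104). Mta1, Exoc1 and Ddx39a averaged 9.77, 10.60 and 9.38 with PicoPure, and each was higher with PicoPure than with RNeasy (adjusted p = 0.0163, 0.0163 and 0.0165). Direct lysis differed from PicoPure by -0.04, -0.40 and -0.14 for them, and none of these passed (adjusted p = 0.847, 0.134 and 0.548). Cherp, Atp2b3 and Wdr44 had the same pattern, with RNeasy means of 9.03, 7.98 and 7.82 below both other preparations. In these 6 genes it was the RNeasy group that read low. Cd151, Samd7 and Spint1 averaged 9.96, 10.86 and 10.11 with PicoPure, nearer to the lysates, but PicoPure did not pass against RNeasy (adjusted p = 0.0928, 0.191 and 0.191).

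Of 296 microRNA precursor genes, 4 were higher and 1 was lower with direct lysis (0.166% and 0.271% of all genes tested). Their median difference was -0.01, and that of all genes -0.00466. A microRNA is cut from a hairpin within a longer primary transcript, and its seed, at bases 2 to 8, pairs with target messages. The array rows are named for the precursor genes and cannot tell a hairpin from its primary transcript or from a mature strand. The mature sequences of the 5 called genes are given to show what these loci encode, with the seed in capitals, from RefSeq on GRCm38.p6. All 5 were matched, and their 9 mature strands hold 9 different seeds. The first lies on the plus strand at chr17:17830194-17830215 and the last on the minus strand at chr16:17124456-17124477.
mmu-miR-99b-5p: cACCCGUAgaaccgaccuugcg
mmu-miR-99b-3p: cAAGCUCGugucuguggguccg
mmu-miR-341-5p: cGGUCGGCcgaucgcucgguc
mmu-miR-341-3p: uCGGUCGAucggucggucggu
mmu-miR-342-5p: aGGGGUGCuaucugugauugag
mmu-miR-342-3p: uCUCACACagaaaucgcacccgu
mmu-miR-382-5p: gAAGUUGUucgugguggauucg
mmu-miR-382-3p: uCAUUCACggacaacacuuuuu
mmu-miR-301b-5p: gCUCUGACuagguugcacuacu

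Mir99b, which gives the first pair of strands, read 8.28, 8.12 and 8.28 with RNeasy and 9.34, 9.02 and 9.14 with direct lysis, a difference of 0.94 ± 0.11 (SE; limma, adjusted p = 0.0265). Mir341 read 8.34, 8.42 and 8.42 against 9.37, 9.15 and 9.03. These genes were above background on all 6 arrays. Mir382 averaged 4.86 with RNeasy and 6.11 with direct lysis, and Mir301b, the lower gene, 6.11 and 5.55, all below background. Mir342 averaged 6.62 and 7.24, and 1 lysate was just above its background. For the last 3 genes the order of values below background has no known meaning. Mir181a-2, above background on no RNeasy array, was at least 1.22-fold higher, Mir199a-1 differed by -0.57, and neither passed (adjusted p = 0.0699 and 0.0839).

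Oocyte genes as a list gave 0 calls over the 65 members (limma), and their median difference was -0.06. The share called among all genes was 0.436%. The arrays did not overlap in 18 members lower with direct lysis and 7 higher, against 8.89% and 7.97% of all genes. The zona pellucida genes Zp2 and Zp3 averaged 12.30 and 11.60 with RNeasy and 12.20 and 11.56 with direct lysis. Zp1 read 12.09, 12.03 and 12.01 against 12.29, 12.41 and 12.38, a non-overlapping difference of 0.31 that did not pass (adjusted p = 0.104). Nlrp5, Npm2 and Dppa3, which the early embryo needs from its mother, differed by 0.05, 0.04 and -0.02, with standard errors of 0.08 each. The decay adaptor gene Btg4 differed by -0.23 ± 0.07 (SE; adjusted p = 0.225), and Mos, the kinase that keeps metaphase II arrest, by 0.14 ± 0.27.

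The first lysate differed from the others in a set of oocyte genes. Tcl1, a coactivator of the AKT kinase, read 12.20, 12.21 and 12.38 with RNeasy and 11.35, 9.50 and 10.46 with direct lysis. Its relative Tcl1b4 read 11.69, 11.48 and 11.39 against 10.45, 8.72 and 8.59. Omt2a, a gene of the oocyte maturation family, read 11.89, 12.05 and 11.91 against 11.41, 10.78 and 10.63. With all arrays none of these passed (limma, adjusted p = 0.113, 0.0854 and 0.0683). Without direct lysis oocyte 1, 8 of the 65 genes were called, all lower, in a fit that called 0.361% of all genes lower: Tcl1, Tcl1b1, Tcl1b2, Tcl1b4, Tcl1b5, Omt2a, Accsl and E330034G19Rik. In each of the 8 the first lysate was the highest lysate. Leaving that lysate out favours calls of such genes, so this order follows from how the 8 were found. The lysates lay below all RNeasy arrays except in Tcl1b2, where the first lysate overlapped them at 12.36. Without direct lysis oocyte 2, 1 of the 65 was called, and it was lower, in a fit that called 58 of 19938 genes lower. Of these genes 5 belong to the Tcl1 family, whose members resemble each other and may share signal.

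Among 77 meiotic cell cycle and spindle genes, Cks2 and Birc5 were lower and 0 were higher, where 0.271% of all genes were called lower. The list's median difference was -0.02. Fbxo43, the Emi2 gene that holds the anaphase-promoting complex inactive, read 12.38, 12.54 and 12.25 with RNeasy and 11.40, 11.85 and 11.11 with direct lysis, and did not pass (adjusted p = 0.0748). Anapc10, a subunit of that complex, read 8.58, 7.71 and 8.52 with RNeasy, was above background in no lysate, and did not pass either (adjusted p = 0.0722). Of 64 genes for storage, polyadenylation and decay of maternal mRNA, Tent2 was lower and 0 were higher, with a median of -0.03. The deadenylase genes Cnot7 and Cnot8 differed by -0.41 and -2.93 and did not pass (adjusted p = 0.0683 and 0.0832). Cnot8 read 8.19, 10.55 and 8.24 in the lysates, and the second lysate stood more than 2 units above the others. Btg2, an antiproliferative gene that recruits deadenylases, differed by -1.07 (adjusted p = 0.0740).

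Ribosomal protein genes lay below 0 as a list, with a median difference of -0.35 over 62 genes and 47 of them negative, against -0.00466 and 10184 of 19938 for all genes. Against PicoPure their median was 0.03, and PicoPure minus RNeasy gave -0.33. With RNeasy oocyte 1, 2 or 3 left out the median was -0.38, -0.35 and -0.31. Only Rpl32l was called, where 0.271% of all genes were called lower, and it lay below background on both sides. Rps4x read 11.89, 11.71 and 11.97 with RNeasy and 11.07, 10.54 and 11.09 with direct lysis, and its 5 rows gave -0.86 to -1.01. Rpl24 read 11.20, 10.53 and 10.87 against 9.83, 9.44 and 9.53. Neither passed (adjusted p = 0.0586 and 0.0867). The row values of these genes may include near-identical copies elsewhere in the genome.

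Nuclear genes of the respiratory chain showed a smaller shift. Their median over 91 genes was -0.23, with 66 negative, and it was -0.05 against PicoPure. Called lower were Atp5j, at 9.42, 9.77 and 9.59 with RNeasy and 8.04, 8.03 and 8.52 with direct lysis, and Atp5j2, at 12.07 ± 0.10 and 11.54 ± 0.04 (SD, n = 3 each). Both encode subunits of the ATP synthase. Of all genes, 0.271% were called lower. Uqcrfs1, the Rieske protein gene of complex III, differed by -1.06 and Cox8c, above background in no lysate, was at least 1.34-fold lower, and neither passed (adjusted p = 0.0664 and 0.0586). The mitochondrially encoded ND3 and COX2, whose transcripts are among the most abundant of an oocyte, differed by -0.20 and -0.15 and did not pass. Mitochondrial ribosomal protein genes had a median of -0.07 over 77 genes and proteasome genes -0.07 over 48. None of either list was called, where 0.436% of all genes were called.

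Short structured RNAs, which silica columns can hold poorly, gave no calls. Of 67 small nuclear, nucleolar and other structured RNA genes, 0 were called (limma), where 0.166% of all genes were higher and 0.271% lower, and 45 differences were negative, with a median of -0.07. Most were not measurable: 40 lay above background on none of the 6 arrays and 8 on all. Snora3, a small nucleolar RNA gene, read 7.68, 7.72 and 6.74 in the lysates and at most 6.82, below background, with RNeasy, and did not pass (adjusted p = 0.310). Without direct lysis oocyte 3, 1 member was called, and it was higher, in a fit that called 16 of 19938 genes higher. In 3 other alternatives 1 member was called lower. These were the fits without direct lysis oocyte 1, with the mean of all rows of a gene, and with limma's trend and robust options. They called 72, 54 and 58 of 19938 genes lower. Rn7sk, the 7SK RNA gene that restrains transcription elongation, read 12.72, 12.81 and 12.70 with RNeasy and 12.13 ± 0.20 (SD, n = 3) with direct lysis (adjusted p = 0.0640). Its second row averaged 12.79 and 11.79 and was called when all rows were tested (adjusted p = 0.00662). Rpph1, the RNA of RNase P, differed by -0.80 (adjusted p = 0.144). Scarna17 read 9.42, 11.01 and 6.94 in the lysates, and its difference of -2.30 was not called (adjusted p = 0.373).

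Heat shock and immediate early genes, which can mark handling before lysis, had a median difference of 0.03 over 35 genes and 0 calls (limma). The share called among all genes was 0.436%. Jund, Hspa8 and Hspa1a differed by 0.41, -0.15 and 0.16, none past the threshold (adjusted p = 0.183, 0.345 and 0.377). Nr4a2, above background on no RNeasy array, was at least 1.08-fold higher and did not pass (adjusted p = 0.260). The 43 histone genes had a median of -0.14, with H2bc18 as the only call, where 0.271% of all genes were called lower. That call was lost in 10 of 18 alternatives. Without direct lysis oocyte 2 or 3 or RNeasy oocyte 3 the median was -0.07, -0.05 and -0.05. H2bc1 read 11.57, 11.86 and 11.79 with RNeasy and 8.30, 10.01 and 10.09 with direct lysis (adjusted p = 0.124). Of the 1233 receptor genes used as background 1 was called in each direction, against 0.166% of all genes higher and 0.271% lower. Their median difference was -0.09. Without the third RNeasy oocyte it was -0.04, with 0 called higher and 2 lower, in a fit that called 3 genes higher and 14 lower. Vmn2r-ps104 was lower, with a difference of -1.01 ± 0.10 (SE; limma, adjusted p = 0.0123).

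**Figure D4:**
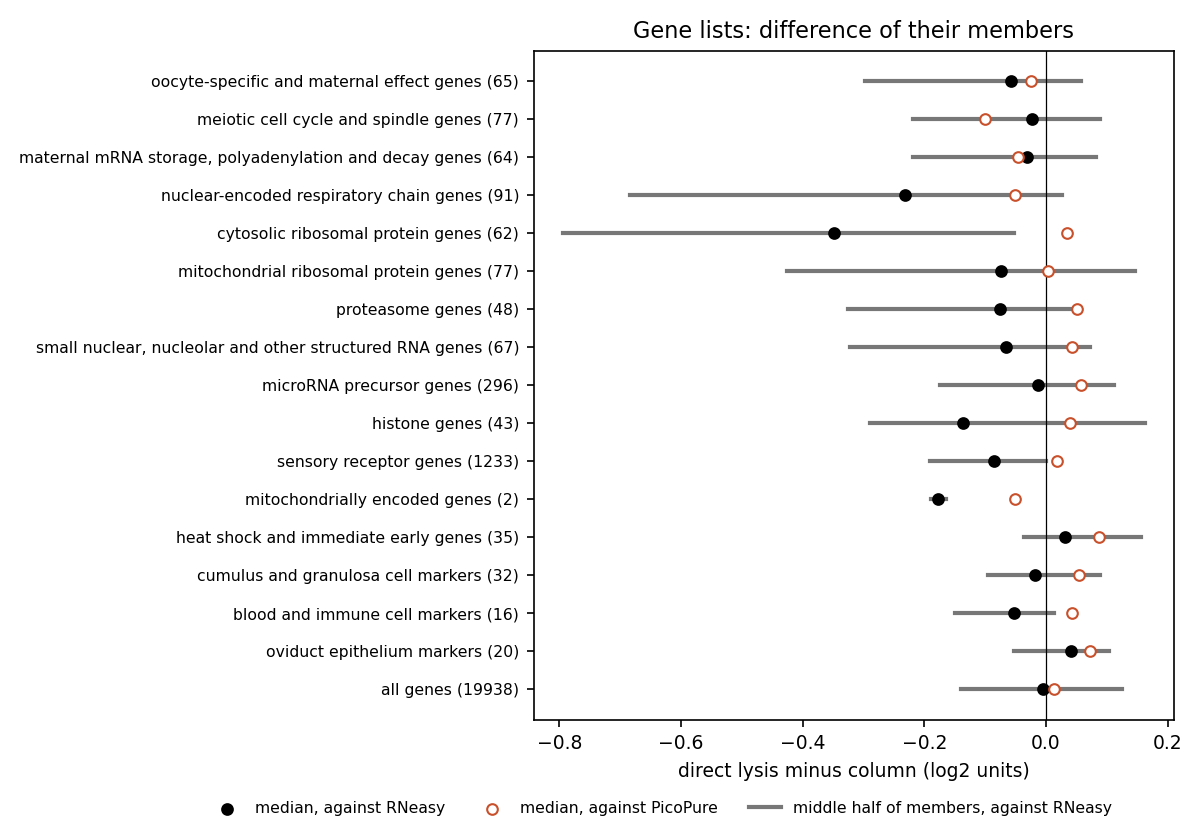
Differences of the members of each gene list (log2 units), with the number of members in brackets; filled points are medians of direct lysis minus RNeasy, bars the middle 50% of members, and open points medians of direct lysis minus PicoPure. Ribosomal protein genes lie at -0.35 against RNeasy and 0.03 against PicoPure, and respiratory chain genes at -0.23 and -0.05.

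The mean number of genes detected was higher in the lysates, and the groups overlapped at the background level used here. The number above background was 11111 ± 403 (SD, n = 3) with direct lysis and 10172 ± 548 with RNeasy. The ranges were 10663 to 11443 and 9668 to 10756. The exact two-sided permutation test over 20 assignments gave p = 0.2, where the smallest possible p is 0.1. The background level was 7.41 and 7.47 on the arrays of RNeasy oocytes 1 and 3, above all lysates, and 7.26 on that of oocyte 2, within their range. With a single level for all arrays the difference was 43.3 genes instead of 939.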

How the data were processed

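RNA of single oocytes was measured on Affymetrix Mouse Gene 1.0 ST arrays. The deposited table holds the authors' log2 expression values, 35556 rows by 9 arrays. The submitters' processing notes list GCRMA, GCOS and Affymetrix Expression Console, giving neither versions nor order. The log2 scale was read from the values (2.41 to 13.90). The background correction could not be repeated, and the number of arrays limits the precision. Rows with 1 symbol in the platform table were used (21789; 1621 had several and 12146 none), and 1 row per gene, with the highest mean. No level filter or new normalization was applied.

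Differences were tested with limma 3.58.1 (R 4.3.3, lmFit and eBayes defaults) in 1 fit over 9 arrays and 3 groups, with 6 residual degrees of freedom, and adjusted by the Benjamini-Hochberg method over 19938 genes. The procedure was tested on simulated data. Members, lists and tests were chosen with earlier results of these data known. Named genes were the 15 largest differences per direction among called genes with non-overlapping arrays and a higher mean above background, up to 4 members per list, all called members of lists and a fixed panel of oocyte genes. Other called genes and those marking the third RNeasy array were picked after their values were seen. Histone, microRNA and linker histone symbols in the lists were updated to the table's names. "At least" folds use each array's background level for the lower group. Gapdh had no row of its own.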

Additional observations from a re-analysis of the deposited data

How the results depend on the processing

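Over 18 alternatives, the call of 1 of the 87 genes was kept in all, of 12 was lost in 1 to 4 and of 74 in 5 or more, up to 14. The count of 87 (33 higher, 54 lower) became 3 (0 and 3) with the 6 arrays alone, where 2158 genes had an unadjusted p under 0.05, against 2681 with all. It was 3 to 95 with single arrays left out (1 to 31 higher and 2 to 72 lower), and 309 (118 and 191) over all rows. With the replicate block it was 15 (2 and 13), of which 13 were among the 87. Same-numbered oocytes of direct lysis and RNeasy deviated together with r = 0.0688, 0.134 and 0.0337, so the numbers were not taken as pairs. Further quantile normalization gave 43 higher and 44 lower, with 67 of the 87 kept. Raising values to background moved the median of all genes from 0.00 to -0.12 and turned 5 genes that lay near or below background: Mir382, Micu3 and 1110032F04Rik to -0.12, Gm5294 to -0.11 and Mir342 to -0.10. The detected-gene difference of 939 became -49 with arrays centred on their median and 1 level (exact permutation p = 0.1), and was 687 to 1231 with single arrays left out. With background at the 90th or 99th percentile of receptor genes that difference was 749 and 787. At the 99th percentile the groups did not overlap (exact permutation p = 0.1, the smallest possible). Direct lysis exceeded RNeasy in median SD by 0.0203, and by 0.0378 with the filter on level. Small list medians moved with single libraries and scaling: without RNeasy oocyte 3 that of structured RNA genes was -0.03, heat shock 0.11 and microRNA 0.01; without RNeasy oocyte 1 that of heat shock genes was 0.00 and proteasome -0.14; without direct lysis oocyte 1 or 2 that of mitochondrial ribosomal genes was -0.13 and -0.04; quantile normalization gave 0.04 for meiotic, 0.00 for maternal mRNA and 0.02 for microRNA genes, and raising values to background -0.11 for heat shock genes. With the 6 arrays alone no member of the 16 lists was called. The cause of these changes was not tested. Signal near background limits the weak genes.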

Other observations

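Of 13767 rows with no symbol or several, 73 were higher and 108 lower with direct lysis when all 35556 rows were tested together (limma). These were 1.31% of such rows, and 0.587% of the 21789 rows with 1 symbol were called. The difference between these shares was not tested. What these rows hold was not analysed here.

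Of the called genes, 13 had more than 1 row. Of their 15 other rows, 13 had the sign of the row used, and 4 were called over all rows. These were the second rows of Cks2, the other row of Vdac2, at -1.02, and that of Atp13a3. The second rows of Hk1 and Pou3f2 had the other sign. They averaged 6.72 and 3.46 with RNeasy and 6.85 and 3.41 with direct lysis, below background on both sides.

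The third RNeasy oocyte also read far above the other arrays in some genes outside the marker lists, chosen after their values were seen. Cd63, a tetraspanin gene of late endosomes, read 9.27 there and at most 5.07 elsewhere. Itm2a, a membrane protein gene, read 9.58 against at most 6.38, the tubulin gene Tuba1a 9.34 against at most 6.79 and the calcium-binding protein gene S100a6 8.93 against at most 6.80. In all, 56 genes lay more than 1 unit above every other array in that library and 50 more than 1 unit below. The numbers were 31 and 9 in the first RNeasy oocyte, 53 and 5 in the second, and 21 to 58 and 31 to 42 in the lysates. In the PicoPure oocytes they were 24 to 58 and 5 to 21. The number above was thus not particular to the third RNeasy library, while its number below was the largest.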
